A study of Mus musculus with 24 samples.

Results

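The last part of oocyte growth was followed in wild-type mouse oocytes as the change between fully grown oocytes collected after hormone stimulation (FGO, above 70 µm) and mid-growth oocytes (GO2, 50 to 55 µm). All genes that reached 1 RPKM (read number scaled by gene length and by the mapped reads of the library) in at least 2 of the 16 RNA-seq libraries were taken, which kept 14557 of 16940 genes. The comparison rested on 4 libraries, WT FGO replicates 1 and 2 against WT GO2 replicates 1 and 2, each made from 20 oocytes. Wild type here means Snf2h fl/fl females of strain B6/129 without Cre. Knockout oocytes (KO, ZP3-Cre with Snf2h fl/fl, same strain) lack Snf2h, an ATP-dependent chromatin remodeller encoded by Smarca5, and served for comparison, as did small growing wild-type oocytes (GO1, 40 to 45 µm) and fully grown ones collected without hormone (nFGO, above 70 µm). ZP3-Cre is driven by the promoter of an oocyte gene and was given for the KO only, so Snf2h loss and the presence of Cre cannot be told apart in KO. FGO and GO2 differed in size and in hormone together, and only nFGO separates them. The molecule is given as polyA RNA for the nFGO libraries and as total RNA for all other RNA-seq libraries, and the nFGO libraries joined the series later, so hormone and library batch cannot be told apart. Neither the animals' age nor whether replicates came from separate animals is given in the labels, so p-values measure the spread between these libraries only.

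An oocyte grows inside its follicle while arrested in the prophase of meiosis, and fills its cytoplasm with RNAs and proteins that the egg and early embryo will use. Late in growth transcription is known to decline and then stop, so the fully grown oocyte relies on stored transcripts, which are kept dormant or removed by binding proteins and deadenylases. During the same period the oocyte becomes competent to resume meiosis, completes its zona pellucida, the glycoprotein coat around it, and acquires maternal DNA methylation.

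RPKM totals were 964523 and 994118 in WT FGO and 924633 and 927347 in WT GO2, with 12733 and 12812 genes at 1 RPKM or more in WT FGO and 12919 and 12718 in WT GO2. Of the genes at 5 RPKM or more, 1.91% differed more than 2-fold between the 2 WT FGO libraries and 0.696% between the 2 WT GO2 libraries. RPKM is relative to each library's own total, so a change in the RNA content of the whole oocyte is not measured, and in such bulk samples fewer cells of a type and less RNA per cell cannot be told apart. The deleted gene Smarca5 lay between 0.70 and 2.06 RPKM in all 8 KO libraries. Among the WT libraries it had 48.7 and 13.9 RPKM in WT FGO, against 37.1 and 38.3 RPKM in WT GO2. WT FGO replicate 2 thus stood apart from the other WT libraries for this gene, and its late-growth change did not pass the test (log2 fold change -0.51, adjusted p = 0.317). That change was -1.37 without WT FGO replicate 1, which passed, and 0.36 with WT FGO replicate 2 left out.

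Late growth was a broad change of the measured relative transcript levels. Whether the length of poly(A) tails affected the measured levels was not tested. Of the 14557 genes, 3831 rose (26.3%) and 3217 fell (22.1%) in WT FGO, so that 48.4% passed the test (limma on log2(RPKM + 1), Benjamini-Hochberg adjusted p under 0.05). The median log2 fold change over all tested genes was 0.0403. Changes of at least 2-fold were reached by 1458 rising and 1327 falling genes, and 57 rises and 24 falls reached 10-fold. Both WT GO2 libraries were under 1 RPKM and both WT FGO libraries at 5 RPKM or more for 64 of the rising genes. The reverse held for 50 falling genes. With each of the 4 libraries left out in turn, 4350 calls were kept in every case, and genes described below as rising or falling are among these unless stated otherwise. Fold changes are on the log2(RPKM + 1) scale, on which changes of low genes come out too small. For a gene taken alone an exact permutation test of 2 libraries against 2 cannot go below p = 0.333, so the calls depend on the spread that limma shares across genes and groups.

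**Figure D1:**
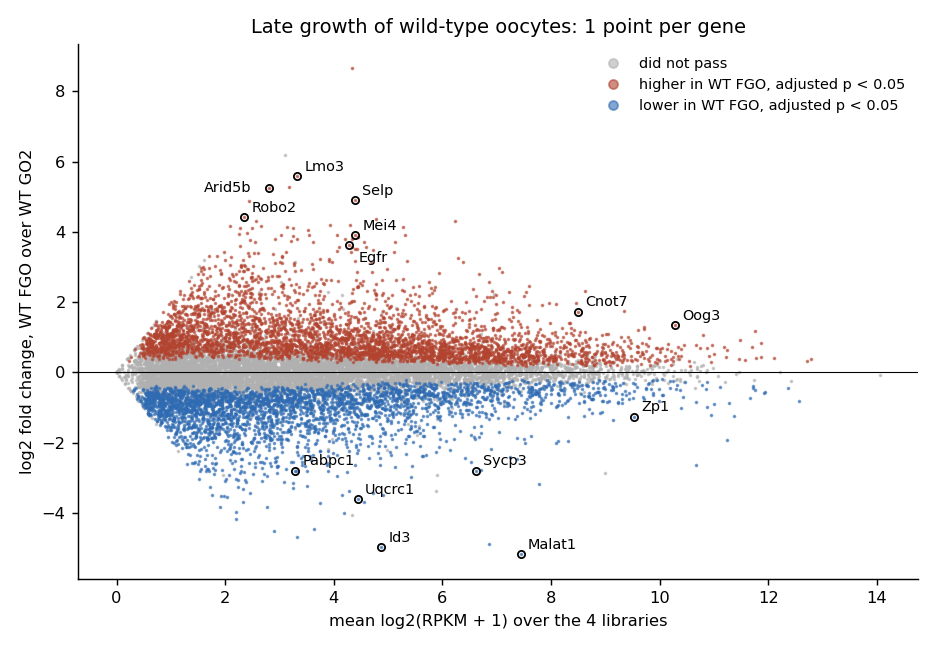
Each point is a gene, with its mean log2(RPKM + 1) over the 2 WT FGO and 2 WT GO2 libraries on the x axis and its log2 fold change of WT FGO over WT GO2 on the y axis. Red genes rose and blue genes fell at adjusted p under 0.05 (3831 and 3217 of 14557); the named genes include Lmo3 at 5.58 and Malat1 at -5.18.

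Among the 15 largest rises, 7 belonged to genes with under 1 RPKM in both WT GO2 libraries. The LIM-only transcriptional cofactor gene Lmo3 (chromosome 6, 138362918 to 138581968, minus strand, mm10) had 63.6 and 73.7 RPKM in WT FGO, against 0.348 and 0.559 RPKM in WT GO2 (log2 fold change 5.58 ± 0.20 SE, adjusted p = 2.93e-08). Lcp2, which encodes an adaptor of T-cell receptor signalling, had 66.5 and 45.6 RPKM in WT FGO, against 0.519 and 0.390 RPKM in WT GO2 (log2 fold change 5.27). Selp, the gene of the cell adhesion protein P-selectin (chromosome 1, 164115264 to 164150026, plus strand), had 108 and 119 RPKM in WT FGO, against 3.11 and 2.61 RPKM in WT GO2 (log2 fold change 4.89 ± 0.19 SE, adjusted p = 2.93e-08). Gm16548 and Gm16587 overlap Selp on the other strand and passed the test too (log2 fold changes 0.997 and 0.90), so the reads of these genes cannot be told apart. In Lmo3, Lcp2 and Selp the groups lay far apart and the 2 libraries of a group close together. The Slit receptor gene Robo2 (chromosome 16, 73891839 to 74411825, minus strand), known from axon guidance, had 18.9 and 26.8 RPKM in WT FGO, against 0.130 and 0.0757 RPKM in WT GO2 (log2 fold change 4.41). Rgn, which encodes the calcium-binding protein regucalcin, had 105 and 142 RPKM in WT FGO, against 5.84 and 4.31 RPKM in WT GO2 (log2 fold change 4.36). Csmd3, a very long gene for a large membrane protein (chromosome 15, 47580637 to 48792063, minus strand), had 28.2 and 23 RPKM in WT FGO, against 0.567 and 0.140 RPKM in WT GO2 (log2 fold change 4.31). The F-box protein gene Fbxo15 had 64.7 and 63.4 RPKM in WT FGO, against 2.66 and 2.42 RPKM in WT GO2 (log2 fold change 4.20). Its neighbour Timm21 overlaps it on the other strand, and reads of overlapping genes on opposite strands cannot be told apart in these unstranded libraries. Rrh, the gene of the retinal pigment protein peropsin, had 23.6 and 28.3 RPKM in WT FGO, against 1.02 and 0.115 RPKM in WT GO2 (log2 fold change 4.16). The other rises of this set were the snoRNA gene Snora47 and 5 genes without a descriptive name (Gm47385, Gm13180, Gm13715, Gm47514 and Gm43263) that reached 26.6 RPKM or more in WT FGO. Snora47, a guide for RNA modification, had 317 and 511 RPKM in WT FGO and was listed at 0 in both WT GO2 libraries, with 26.1 and 39.3 RPKM in WT GO1. It lies inside Zbed3 on the same strand, and Zbed3 itself had a log2 fold change of -0.06 that did not pass the test (adjusted p = 0.53).

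The 2 WT FGO libraries of Arid5b were far apart, and its level did not follow oocyte size. This gene of an AT-rich interaction domain protein (chromosome 10, 68092520 to 68278740, minus strand) had 27.8 and 64 RPKM in WT FGO, against 0.163 and 0.110 RPKM in WT GO2 (log2 fold change 5.25 ± 1.06 SE, adjusted p = 0.00156). It also stood at 29.2 and 31.3 RPKM in WT GO1 and at 0.484 and 0.456 RPKM in WT nFGO. Across the 4 WT stages it was thus high in GO1, low in GO2 and nFGO and high in FGO. The 2 KO nFGO libraries were far apart for Arid5b, at 0.0633 and 32.8 RPKM, so its level also differed between libraries of 1 group. A search of the WT libraries took genes whose GO1 and FGO values all exceeded 4 times the GO2 and nFGO values by more than 1 RPKM. It found 2 genes, Arid5b and Gm32687. Gm32687 had 3.91 and 7.02 RPKM in WT FGO, against 0 and 0.0475 RPKM in WT GO2 (log2 fold change 2.62), with 4.82 and 5.95 RPKM in WT GO1 and 0.0330 and 0.0394 RPKM in WT nFGO. In KO nFGO it had 2.90 and 3.42 RPKM.

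The largest fall by the rule for named genes was that of Malat1, a long noncoding RNA known to stay in the nucleus. Malat1 (chromosome 19, 5795690 to 5802672, minus strand) had 23.8 and 32.5 RPKM in WT FGO, against 1015 and 1074 RPKM in WT GO2 (log2 fold change -5.18 ± 0.27 SE, adjusted p = 1.13e-07). Gm37376 lies within Malat1 on the opposite strand and fell alongside it (log2 fold change -4.89), and the reads of these 2 genes cannot be told apart. Id3, an inhibitor of basic helix-loop-helix transcription factors, had 6.28 and 2.78 RPKM in WT FGO, against 145 and 182 RPKM in WT GO2 (log2 fold change -4.97 ± 0.26 SE, adjusted p = 1.13e-07). The homeobox repressor gene Tgif1 had 6.69 and 4.62 RPKM in WT FGO, against 79 and 88.6 RPKM in WT GO2 (log2 fold change -3.69 ± 0.16 SE, adjusted p = 5.07e-08). In both regulators every WT FGO library was far below every WT GO2 library.

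The remaining large falls belonged to genes of varied known roles. Mdn1, which encodes the giant ATPase midasin of ribosome assembly, had 0.0511 and 0.131 RPKM in WT FGO, against 18.2 and 19 RPKM in WT GO2 (log2 fold change -4.17). The translation initiation factor gene Eif1a had 0.866 and 0.772 RPKM in WT FGO, against 22.9 and 27.1 RPKM in WT GO2 (log2 fold change -3.83). The chaperonin subunit gene Cct6a had 2.90 and 2.50 RPKM in WT FGO, against 42 and 54.3 RPKM in WT GO2 (log2 fold change -3.72). Psph, on the opposite strand of the Cct6a locus, fell as well (log2 fold change -1.87), and the 2 genes cannot be told apart. Exosc6, a subunit gene of the RNA exosome, was listed at 0 in both WT FGO libraries and had 16.9 and 10.1 RPKM in WT GO2; it overlaps Aars on the same strand. Selenos, a selenoprotein gene of endoplasmic reticulum protein quality control, had 0.523 and 0.626 RPKM in WT FGO, against 35.5 and 33.9 RPKM in WT GO2 (log2 fold change -4.50). Nmrk1, the gene of a nicotinamide riboside kinase of NAD synthesis, had 0.265 and 0.0739 RPKM in WT FGO, against 17.4 and 17.2 RPKM in WT GO2 (log2 fold change -3.97). Uqcrc1, a core subunit gene of respiratory complex III, had 4.34 and 6.24 RPKM in WT FGO, against 70.2 and 79.4 RPKM in WT GO2 (log2 fold change -3.61 ± 0.34 SE, adjusted p = 5.59e-06). Tcp11l1 (1.22 and 0.747 RPKM in WT FGO, against 48.1 and 51.1 RPKM in WT GO2), Zfp707, Ttc34 and the pseudogene Gm14231 completed the 15, with log2 fold changes of -4.68, -4.46, -3.68 and -4.01. Both WT FGO libraries were under 1 RPKM in 6 of the 15.

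**Figure D2:**
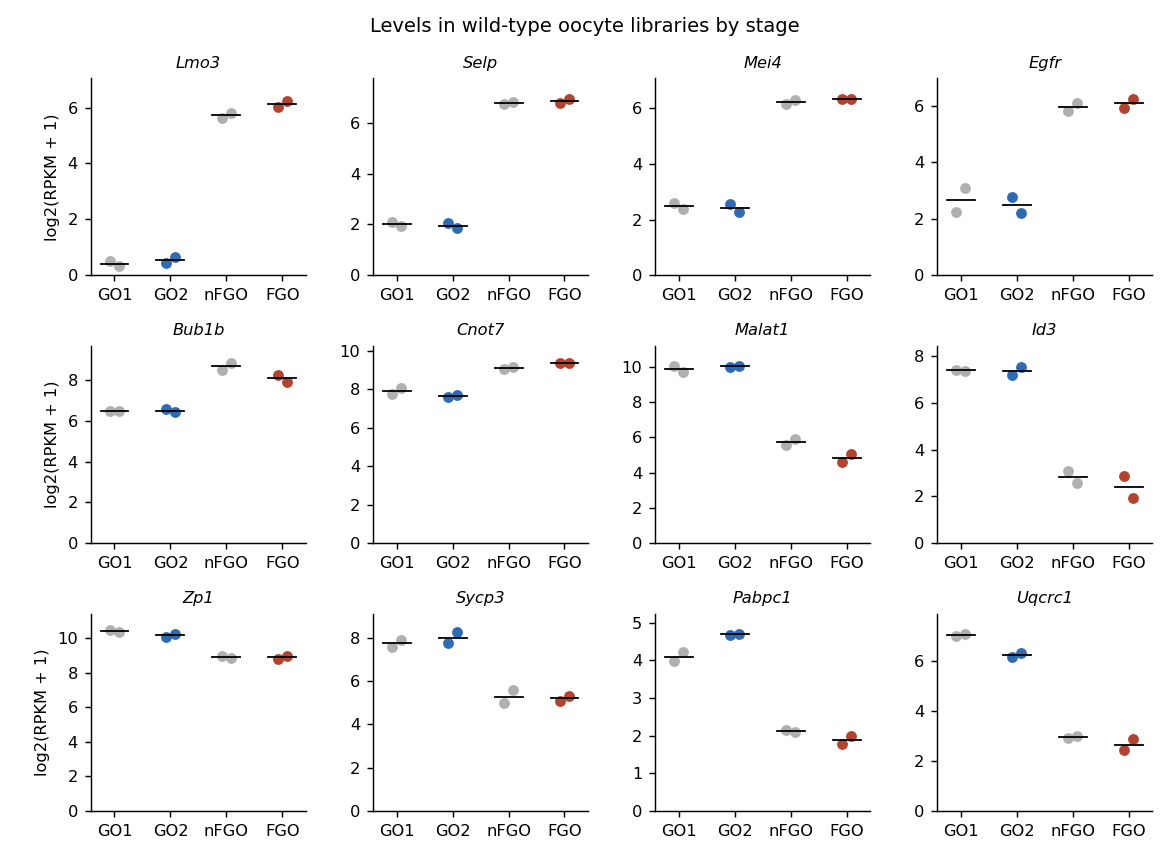
Levels of 12 genes as log2(RPKM + 1) in the 2 wild-type libraries of each stage, in the order GO1, GO2, nFGO and FGO; points are libraries and bars their means. The 6 rising genes (upper panels and the first panels of the middle row) and 6 falling genes each had nFGO libraries on the side of FGO, as for Lmo3 with 48.8 and 54.6 RPKM in WT nFGO.

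The most abundant transcripts changed less. The highest gene, Elobl, had 17680 and 15820 RPKM in WT FGO, against 17150 and 17840 RPKM in WT GO2, a difference within the spread of the libraries. Eloc, which encodes elongin C, had 8258 and 7793 RPKM in WT FGO, against 6071 and 6265 RPKM in WT GO2 (log2 fold change 0.38). Among the other 8 genes with the highest levels in WT FGO, Mdm4, whose product restrains the tumour suppressor p53, had 5561 and 4785 RPKM in WT FGO, against 2623 and 2007 RPKM in WT GO2 (log2 fold change 1.17 ± 0.15 SE, adjusted p = 5.1e-05). Omt2b, an oocyte maturation gene, had 5000 and 5153 RPKM in WT FGO, against 3691 and 3896 RPKM in WT GO2 (log2 fold change 0.42). The ubiquitin hydrolase gene Uchl1 had 4271 and 4835 RPKM in WT FGO, against 6217 and 6080 RPKM in WT GO2 (log2 fold change -0.44). The oocyte linker histone gene H1foo had 7826 and 7158 RPKM in WT FGO, against 6253 and 5789 RPKM in WT GO2 and rose in the fit over all libraries (log2 fold change 0.32), a call that was lost without WT GO2 replicate 2. The lactate dehydrogenase gene Ldhb had 3187 and 6574 RPKM in WT FGO, against 7488 and 8733 RPKM in WT GO2 (log2 fold change -0.82), and its WT FGO libraries differed by more than 2-fold. Ldhb had a log2 fold change of -1.34 with WT FGO replicate 2 left out and -0.30 with replicate 1 left out, and the call was kept only without WT GO2 replicate 1 or without WT FGO replicate 2. Dppa3 and Gm813, also among the 10 highest, did not pass the test.

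Gene lists of oocyte functions were then counted against the 26.3% of genes that rose and the 22.1% that fell among all genes tested. Counts over a list are not tests of the list, and the calls in them include members whose call was lost with 1 library left out. The number of rises and falls kept with each of the 4 libraries left out is therefore given for each list as kept. Over all 14557 tested genes, 2376 rises and 1974 falls were kept.

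**Figure D3:**
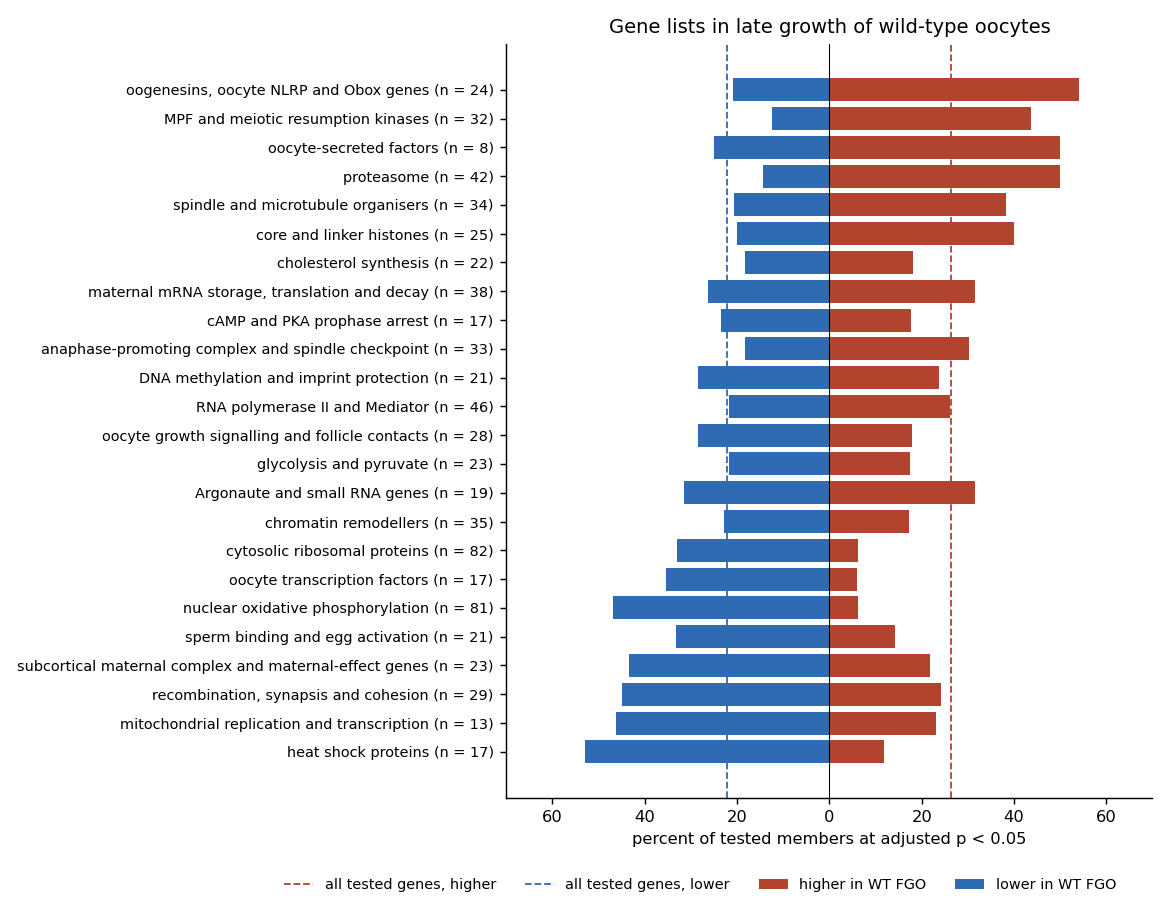
Percent of the tested members of each list (n beside its name) that were higher (red, right) or lower (blue, left) in WT FGO at adjusted p under 0.05, sorted by the median log2 fold change. Dashed lines mark the share of all tested genes, 26.3% higher and 22.1% lower; 50% of proteasome genes were higher and 46.9% of nuclear oxidative phosphorylation genes lower.

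The genes of the egg coat fell. All 3 zona pellucida genes passed the test in that direction, and 2 of these falls were kept. Zp1 (chromosome 19, 10914287 to 10920632, minus strand), which cross-links the filaments of the coat, had 451 and 508 RPKM in WT FGO, against 1094 and 1207 RPKM in WT GO2 (log2 fold change -1.26 ± 0.10 SE, adjusted p = 1.4e-06). Zp3, a filament protein that takes part in sperm binding, had 2127 and 2994 RPKM in WT FGO, against 3936 and 4449 RPKM in WT GO2 (log2 fold change -0.73). Zp2, the other filament protein, had 1035 and 2164 RPKM in WT FGO, against 2703 and 2886 RPKM in WT GO2 (log2 fold change -0.90), with 1 WT FGO library closer to WT GO2 than the other. Zp2 had a log2 fold change of -1.43 with WT FGO replicate 2 left out and -0.37 with replicate 1 left out, and the call was kept only without WT FGO replicate 2. Astl, the gene of the cortical granule protease ovastacin that cleaves ZP2 after fertilization, had 60.2 and 87.6 RPKM in WT FGO, against 228 and 246 RPKM in WT GO2 (log2 fold change -1.69).

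The 8 oocyte-secreted factors went both ways, with 4 that rose (50%) and 2 that fell (25%), Astl among them. The shares of all tested genes were 26.3% and 22.1%, and 3 rises and 2 falls of the list were kept. The oocyte-secreted protein gene Oosp3 had 4322 and 4241 RPKM in WT FGO, against 2662 and 2569 RPKM in WT GO2 (log2 fold change 0.71), and Oosp2 (log2 fold change 0.53) and Oosp1 (log2 fold change 0.35) rose as well. Fgf8, a growth factor that acts on cumulus cells, had 186 and 207 RPKM in WT FGO, against 266 and 283 RPKM in WT GO2 (log2 fold change -0.48). Gdf9 and Bmp6, growth factors of the TGF-beta family, did not pass the test.

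Of 23 maternal-effect genes, 5 rose (21.7%) and 10 fell (43.5%), against 26.3% and 22.1% of all tested genes. The median log2 fold change of the list was -0.28, and 3 rises and 7 falls were kept. The subcortical maternal complex, a protein assembly under the egg surface, was represented among the falls by Ooep (log2 fold change -0.47), Khdc3 (log2 fold change -0.64) and Tle6 (log2 fold change -0.42). Nlrp14 had 1372 and 2166 RPKM in WT FGO, against 3772 and 4441 RPKM in WT GO2 (log2 fold change -1.25). The histone chaperone gene Npm2, which unpacks sperm chromatin, had 1155 and 1560 RPKM in WT FGO, against 2647 and 2612 RPKM in WT GO2 (log2 fold change -0.97). On the rising side, the AKT cofactor gene Tcl1 had 3961 and 3945 RPKM in WT FGO, against 2076 and 2091 RPKM in WT GO2 (log2 fold change 0.92). Zar1l, a paralog of the zygote arrest gene Zar1, had 978 and 957 RPKM in WT FGO, against 532 and 491 RPKM in WT GO2 (log2 fold change 0.92), whereas Zar1 had 769 and 800.5 RPKM in WT FGO, against 1032 and 960.4 RPKM in WT GO2 (log2 fold change -0.34). The paralogs therefore changed in opposite directions.

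The oogenesins (leucine-rich proteins of the PRAME family), oocyte NLRP genes and Obox homeobox genes are multigene families known for their restriction to oocytes and early embryos. Of 24 tested, 13 rose (54.2%) and 5 fell (20.8%), with a median log2 fold change of 0.46, and 13 rises and 3 falls were kept. Members are close copies of each other, so how reads were split among them is uncertain. Oog3 had 2129 and 1833 RPKM in WT FGO, against 822 and 742 RPKM in WT GO2 (log2 fold change 1.34 ± 0.20 SE, adjusted p = 0.000169). Oog2 had 874 and 897 RPKM in WT FGO, against 505 and 384 RPKM in WT GO2 (log2 fold change 1.01). Oog1 had 174 and 154 RPKM in WT FGO, against 103 and 103 RPKM in WT GO2 (log2 fold change 0.66). Oog4 was the oogenesin that went the other way, with 945 and 1318 RPKM in WT FGO, against 1707 and 1446 RPKM in WT GO2; its call (log2 fold change -0.49) was kept only without WT FGO replicate 2. All 4 measured Obox genes rose, Obox7 with 414 and 369 RPKM in WT FGO, against 211 and 178 RPKM in WT GO2 (log2 fold change 1.01) and Obox1, Obox2 and Obox5 with log2 fold changes of 0.77, 0.84 and 0.69. Of the NLRP genes, Nlrp4e had 93.8 and 83.7 RPKM in WT FGO, against 38.7 and 24 RPKM in WT GO2 (log2 fold change 1.51), whereas Nlrp4c (log2 fold change -1.12) fell.

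The promoters of these oogenesin and Obox genes are shown because the genes share descent and mostly rose together; they were chosen after the values were seen. Each runs from 250 bases before to 50 bases after the RefSeq start (GRCm38.p6, the patch release of the mm10 assembly), 5′ to 3′ on the gene's strand, with each TATATA and CAGCTG in capitals. Oog1 lies at chr12:87602415-87602714 on the plus strand, Oog2 at chr4:144190467-144190766 on the plus strand, Oog3 at chr4:144162602-144162901 on the minus strand and Oog4 at chr4:143450275-143450574 on the minus strand. The Obox promoters lie on the plus strand, Obox1 at chr7:15547007-15547306, Obox2 at chr7:15388601-15388900, Obox5 at chr7:15750120-15750419 and Obox7 at chr7:14659458-14659757.
Oog1: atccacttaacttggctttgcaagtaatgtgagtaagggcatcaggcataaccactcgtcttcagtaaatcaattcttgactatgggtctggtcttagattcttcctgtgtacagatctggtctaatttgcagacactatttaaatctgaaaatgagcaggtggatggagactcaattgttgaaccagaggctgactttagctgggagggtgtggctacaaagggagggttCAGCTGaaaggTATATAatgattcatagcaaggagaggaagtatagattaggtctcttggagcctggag
Oog2: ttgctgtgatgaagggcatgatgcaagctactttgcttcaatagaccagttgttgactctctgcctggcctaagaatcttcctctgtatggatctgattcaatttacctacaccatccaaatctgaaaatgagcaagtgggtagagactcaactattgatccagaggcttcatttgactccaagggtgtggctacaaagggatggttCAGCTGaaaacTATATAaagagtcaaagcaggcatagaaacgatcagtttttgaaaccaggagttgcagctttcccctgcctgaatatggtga
Oog3: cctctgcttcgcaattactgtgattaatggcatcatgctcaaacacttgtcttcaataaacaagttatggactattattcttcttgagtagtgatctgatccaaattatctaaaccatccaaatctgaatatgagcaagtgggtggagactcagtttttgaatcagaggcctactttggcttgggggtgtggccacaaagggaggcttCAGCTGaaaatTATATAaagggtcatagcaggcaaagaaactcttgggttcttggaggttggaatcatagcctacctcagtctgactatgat
Oog4: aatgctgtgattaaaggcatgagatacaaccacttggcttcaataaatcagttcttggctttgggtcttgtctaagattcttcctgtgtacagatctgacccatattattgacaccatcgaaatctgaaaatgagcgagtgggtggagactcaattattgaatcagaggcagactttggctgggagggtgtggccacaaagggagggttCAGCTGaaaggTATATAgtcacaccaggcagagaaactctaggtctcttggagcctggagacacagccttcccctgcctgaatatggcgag
Obox1: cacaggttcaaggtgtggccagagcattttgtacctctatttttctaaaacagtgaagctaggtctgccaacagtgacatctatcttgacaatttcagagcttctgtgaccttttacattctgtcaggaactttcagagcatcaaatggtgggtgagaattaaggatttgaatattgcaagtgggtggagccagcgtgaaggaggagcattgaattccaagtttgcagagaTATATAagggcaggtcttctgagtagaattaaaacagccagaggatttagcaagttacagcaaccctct
Obox2: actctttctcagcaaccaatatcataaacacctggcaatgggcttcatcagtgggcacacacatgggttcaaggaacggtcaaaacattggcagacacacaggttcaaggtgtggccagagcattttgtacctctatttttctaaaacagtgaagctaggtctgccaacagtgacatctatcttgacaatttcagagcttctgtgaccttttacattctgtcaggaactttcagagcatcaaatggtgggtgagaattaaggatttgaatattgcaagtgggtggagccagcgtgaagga
Obox5: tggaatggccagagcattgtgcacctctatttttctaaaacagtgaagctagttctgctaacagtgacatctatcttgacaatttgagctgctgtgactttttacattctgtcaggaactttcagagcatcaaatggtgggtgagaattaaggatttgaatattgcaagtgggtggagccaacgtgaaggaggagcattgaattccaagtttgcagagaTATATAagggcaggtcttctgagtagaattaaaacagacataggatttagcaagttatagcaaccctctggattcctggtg
Obox7: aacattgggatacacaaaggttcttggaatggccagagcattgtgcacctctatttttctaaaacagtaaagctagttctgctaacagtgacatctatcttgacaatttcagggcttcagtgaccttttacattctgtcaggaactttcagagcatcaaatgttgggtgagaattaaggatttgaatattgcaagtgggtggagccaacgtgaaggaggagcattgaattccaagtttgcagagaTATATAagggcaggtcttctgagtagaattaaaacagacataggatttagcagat

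All 4 oogenesin promoters held CAGCTG, a palindrome of the E-box type CANNTG, followed after 5 bases by TATATA, which reads the same on both strands. The TATATA began 32, 31 and 30 bases before the start in Oog2, Oog3 and Oog4, and 8 bases before it in Oog1. Of 32851 promoters of the same length, 5.67% held TATATA, 16.3% held CAGCTG and 0.661% held both. The longer string CAGCTGAAANNTATATA was found in 8 promoters (0.0244%), those of the 4 oogenesins and of Gm2042, Pramel23, Pramel26 and Pramel32. The Obox1, Obox5 and Obox7 promoters held TATATA, 19, 31 and 5 bases before the start, and no CAGCTG. The Obox2 promoter held neither string in this window. Obox1 and Obox2 shared an unbroken run of 203 bases, Obox5 and Obox7 one of 134 bases and Oog1 and Oog4 one of 31 bases. Oog4 held the same string as the oogenesins that rose.

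Oocyte transcription factor genes fell more often than they rose. Of 17 tested, 1 rose (5.88%) and 6 fell (35.3%), against 26.3% and 22.1% of all tested genes. The median log2 fold change of the list was -0.21, and 0 rises and 6 falls were kept. Figla, which drives the zona genes, had 107 and 144 RPKM in WT FGO, against 294 and 313 RPKM in WT GO2 (log2 fold change -1.28). Its partners of the E protein family were lower too, Tcf12 with 2.88 and 2.99 RPKM in WT FGO, against 8.30 and 11.2 RPKM in WT GO2 (log2 fold change -1.44) and Tcf3 with a log2 fold change of -0.88. Tbpl2, which replaces TBP in oocyte transcription, had 18.1 and 20.9 RPKM in WT FGO, against 61 and 65.3 RPKM in WT GO2 (log2 fold change -1.65 ± 0.14 SE, adjusted p = 2.96e-06). Its partner Gtf2a1l (log2 fold change -0.59) and the TFIID subunit gene Taf4b (log2 fold change -0.79) also fell. Nobox, Sohlh2 and Lhx8, other regulators of follicle formation, did not pass the test.

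Subunit genes of RNA polymerase II and Mediator rose and fell at shares near those of all tested genes, 26.3% and 22.1%. Of 46 tested, 12 rose (26.1%) and 10 fell (21.7%), and 5 rises and 9 falls were kept. Polr2d, a subunit of the stalk, had 1259 and 1261 RPKM in WT FGO, against 649 and 628 RPKM in WT GO2 (log2 fold change 0.98). Polr2h, a subunit shared with the other nuclear polymerases, had 24.2 and 18.5 RPKM in WT FGO, against 87.9 and 83.7 RPKM in WT GO2 (log2 fold change -1.97). The largest subunit gene, Polr2a, had 0.998 and 1.12 RPKM in WT FGO, against 2.41 and 2.81 RPKM in WT GO2 (log2 fold change -0.81). The elongation kinase gene Cdk9 had 3.36 and 3.51 RPKM in WT FGO, against 13.7 and 9.85 RPKM in WT GO2 (log2 fold change -1.51), while Cdk7, the kinase gene of the initiation factor TFIIH, had 272 and 264 RPKM in WT FGO, against 161 and 145 RPKM in WT GO2 (log2 fold change 0.80).

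Genes that drive entry into meiotic M phase rose more often than they fell. Of 32 genes of maturation-promoting factor (cyclin B with CDK1) and its regulators, 14 rose (43.8%) and 4 fell (12.5%), with a median log2 fold change of 0.31, and 11 rises and 1 falls were kept. Cyclin B1, Ccnb1, had 771 and 781 RPKM in WT FGO, against 446 and 465 RPKM in WT GO2 (log2 fold change 0.77). Cyclin B3, Ccnb3, which is needed to leave meiosis I, had 10.5 and 11.5 RPKM in WT FGO, against 2.94 and 2.01 RPKM in WT GO2 (log2 fold change 1.80 ± 0.18 SE, adjusted p = 9e-06). The spindle kinase gene Aurka had 268 and 256 RPKM in WT FGO, against 133 and 135 RPKM in WT GO2 (log2 fold change 0.96). Its cofactor Bora (log2 fold change 0.77), the Greatwall kinase gene Mastl (log2 fold change 0.80), the centriole kinase gene Plk4 (log2 fold change 0.97) and Plk1 (log2 fold change 0.58) rose as well. Among the inhibitory kinases, Wee1 had 5.94 and 4.59 RPKM in WT FGO, against 23.1 and 26.3 RPKM in WT GO2 (log2 fold change -2.04 ± 0.20 SE, adjusted p = 9.62e-06), whereas the oocyte kinase gene Wee2 had 286 and 272 RPKM in WT FGO, against 193 and 202 RPKM in WT GO2 (log2 fold change 0.50). Cdk1, Cdc25b and Mos did not pass the test.

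The cAMP pathway, which holds the oocyte in prophase through protein kinase A, changed in both directions. Of 17 tested genes, 3 rose (17.6%) and 4 fell (23.5%), against 26.3% and 22.1% of all tested genes. Of these, 1 rise and 4 falls were kept. Gnas, which encodes the stimulatory G protein that activates adenylate cyclase, had 80.3 and 126 RPKM in WT FGO, against 236 and 275 RPKM in WT GO2 (log2 fold change -1.33). Adenylate cyclase gene Adcy1 had 0.290 and 0.212 RPKM in WT FGO, against 3.30 and 3.70 RPKM in WT GO2 (log2 fold change -1.85). Both catalytic subunit genes of protein kinase A fell, Prkaca with 1.76 and 2.06 RPKM in WT FGO, against 6.92 and 6.14 RPKM in WT GO2 (log2 fold change -1.37) and Prkacb with 1.42 and 2.04 RPKM in WT FGO, against 4.93 and 6.13 RPKM in WT GO2 (log2 fold change -1.26). The regulatory subunit gene Prkar2b had 26.1 and 25.4 RPKM in WT FGO, against 6.55 and 5.13 RPKM in WT GO2 (log2 fold change 1.97 ± 0.24 SE, adjusted p = 3.75e-05). Gpr3, the receptor that keeps cAMP high, and Pde3a, the phosphodiesterase that lowers it, did not pass.

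Among 33 genes of the anaphase-promoting complex and spindle checkpoint, 10 rose (30.3%) and 6 fell (18.2%), against 26.3% and 22.1% of all tested genes. Kept were 7 rises and 5 falls. The checkpoint kinase gene Bub1b, for BUBR1, had 306 and 243 RPKM in WT FGO, against 94.8 and 85.8 RPKM in WT GO2 (log2 fold change 1.59 ± 0.15 SE, adjusted p = 5.28e-06). The activator Cdc20 had 107 and 108 RPKM in WT FGO, against 53 and 52.9 RPKM in WT GO2 (log2 fold change 1.01). Fbxo43, the inhibitor EMI2 that holds the egg in metaphase II, had 73 and 68.3 RPKM in WT FGO, against 32.2 and 28.1 RPKM in WT GO2 (log2 fold change 1.21). Subunit Cdc27 had 276 and 228 RPKM in WT FGO, against 132 and 111 RPKM in WT GO2 (log2 fold change 1.04). Ubiquitin-conjugating enzyme genes of the complex fell, Ube2c with 316 and 387 RPKM in WT FGO, against 844 and 955 RPKM in WT GO2 (log2 fold change -1.36) and Ube2s with a log2 fold change of -0.87. Securin, Pttg1, one of its targets, had 2728 and 3666 RPKM in WT FGO, against 4790 and 4729 RPKM in WT GO2 (log2 fold change -0.59).

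Spindle genes rose in 13 of 34 cases (38.2%) and fell in 7 (20.6%), against 26.3% and 22.1% of all tested genes. Kept were 9 rises and 3 falls. The actin nucleators for spindle positioning, Spire1 and Fmn2, were both higher. Spire1 had 69.3 and 74.6 RPKM in WT FGO, against 25.9 and 21.7 RPKM in WT GO2 (log2 fold change 1.56), and Fmn2 had 47.3 and 46.4 RPKM in WT FGO, against 27.5 and 28.6 RPKM in WT GO2 (log2 fold change 0.72). The midzone kinesin gene Kif23 had 548 and 611 RPKM in WT FGO, against 306 and 286 RPKM in WT GO2 (log2 fold change 0.97), and the spindle assembly factor gene Tpx2 had 142 and 137 RPKM in WT FGO, against 92.4 and 86.9 RPKM in WT GO2 (log2 fold change 0.63). Augmin subunits, which nucleate microtubules on microtubules, were split: Haus7 (log2 fold change 1.26) and Haus3 (log2 fold change 0.55) rose, and Haus4 (log2 fold change -0.99) and Haus2 (log2 fold change -1.17) fell.

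Genes of meiotic recombination, completed long before this stage, were counted as well. Of 29 tested, 7 rose (24.1%) and 13 fell (44.8%), and 5 rises and 7 falls were kept. Sycp3, of the axial element, had 33.1 and 39.2 RPKM in WT FGO, against 216 and 306 RPKM in WT GO2 (log2 fold change -2.80 ± 0.28 SE, adjusted p = 8.93e-06). The cohesin gene Smc1b had 7.64 and 7.99 RPKM in WT FGO, against 26.7 and 36.8 RPKM in WT GO2 (log2 fold change -1.88), and Sycp1, of the synapsed axis, had 21.2 and 21.9 RPKM in WT FGO, against 45.6 and 52.2 RPKM in WT GO2 (log2 fold change -1.15). A pair of recombination genes went strongly the other way. Mei4, needed to form meiotic double-strand breaks (chromosome 9, 81863670 to 82206007, plus strand), had 80.1 and 80.7 RPKM in WT FGO, against 4.99 and 3.87 RPKM in WT GO2 (log2 fold change 3.91 ± 0.27 SE, adjusted p = 6.83e-07). Tex11, of crossover formation, had 19.8 and 18.1 RPKM in WT FGO, against 2.38 and 2.74 RPKM in WT GO2 (log2 fold change 2.49).

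The DNA methylation genes rose and fell at shares near those of all tested genes, 26.3% and 22.1%. Of 21 tested, 5 rose (23.8%) and 6 fell (28.6%), and 2 rises and 5 falls were kept. Dnmt3l, the cofactor of the de novo enzyme in oocytes, had 118 and 144 RPKM in WT FGO, against 52.6 and 58.8 RPKM in WT GO2 (log2 fold change 1.21 ± 0.15 SE, adjusted p = 5.26e-05). The maintenance enzyme gene Dnmt1 had 457 and 436 RPKM in WT FGO, against 766 and 863 RPKM in WT GO2 (log2 fold change -0.86), and its partner Uhrf1 had 61.8 and 67 RPKM in WT FGO, against 99.1 and 103 RPKM in WT GO2 (log2 fold change -0.64). Kdm1b, the H3K4 demethylase needed for methylation of maternal imprints, had 53.1 and 79.9 RPKM in WT FGO, against 313 and 385 RPKM in WT GO2 (log2 fold change -2.40 ± 0.21 SE, adjusted p = 4.18e-06). The H3K9 methyltransferase gene Ehmt2 had 0.857 and 0.181 RPKM in WT FGO, against 4.20 and 4.03 RPKM in WT GO2 (log2 fold change -1.79), and the H3K36 methyltransferase gene Nsd1 had 21.9 and 19.5 RPKM in WT FGO, against 13.2 and 12.2 RPKM in WT GO2 (log2 fold change 0.66). Dnmt1 and Dnmt3l thus moved in opposite directions.

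Histone genes rose in 10 of 25 cases (40%) and fell in 5 (20%), against 26.3% and 22.1% of all tested genes. Kept were 5 rises and 3 falls. The testis and oocyte variant Hist1h2ba had 13.2 and 7.51 RPKM in WT FGO, against 1.35 and 2.28 RPKM in WT GO2 (log2 fold change 1.98), and the linker histone gene Hist1h1a had 28.5 and 25.5 RPKM in WT FGO, against 8.49 and 13.9 RPKM in WT GO2 (log2 fold change 1.23). The replacement H3.3 gene H3f3b had 957 and 917 RPKM in WT FGO, against 647 and 719 RPKM in WT GO2 (log2 fold change 0.46). H2afz, for the variant H2A.Z, had 40.4 and 37.7 RPKM in WT FGO, against 286 and 265 RPKM in WT GO2 (log2 fold change -2.79 ± 0.13 SE, adjusted p = 5.26e-08), and the linker histone gene Hist1h1c had 0.733 and 1.19 RPKM in WT FGO, against 5.58 and 5.41 RPKM in WT GO2 (log2 fold change -1.74). Canonical histone genes are near-identical copies, so their counts are uncertain.

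Among chromatin remodellers, 6 of 35 rose (17.1%) and 8 fell (22.9%), against 26.3% and 22.1% of all tested genes. Kept were 2 rises and 3 falls. Chd4, the NuRD ATPase gene, had 23.4 and 25.1 RPKM in WT FGO, against 11.2 and 11.6 RPKM in WT GO2 (log2 fold change 1.02), whereas the deacetylase gene Hdac1 had 5.09 and 4.32 RPKM in WT FGO, against 14.3 and 17.2 RPKM in WT GO2 (log2 fold change -1.55). Of the partners of Snf2h, Baz2a had 13.4 and 14.1 RPKM in WT FGO, against 8.66 and 8.12 RPKM in WT GO2 (log2 fold change 0.65), and Baz1a had 28.9 and 31.3 RPKM in WT FGO, against 42 and 46.2 RPKM in WT GO2 (log2 fold change -0.54).

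Genes of mRNA storage, translation and decay changed in both directions. Of 38 genes tested, 12 rose (31.6%) and 10 fell (26.3%), against 26.3% and 22.1% of all tested genes. Of these, 8 rises and 8 falls were kept. Genes that remove poly(A) tails or caps were among the rises: the deadenylase gene Cnot7 had 666 and 652 RPKM in WT FGO, against 193 and 203 RPKM in WT GO2 (log2 fold change 1.73 ± 0.13 SE, adjusted p = 1.1e-06). Btg4, the adaptor that brings this deadenylase to maternal mRNA, had 2866 and 3118 RPKM in WT FGO, against 1740 and 1857 RPKM in WT GO2 (log2 fold change 0.73). The decapping genes Dcp2 and Dcp1a had log2 fold changes of 1.07 and 0.71, with Dcp2 at 147 and 145 RPKM in WT FGO, against 73.2 and 65.4 RPKM in WT GO2. Genes of mRNA binding and repression were among the falls. The poly(A)-binding protein gene Pabpc1 had 2.44 and 3.0 RPKM in WT FGO, against 24.7 and 25 RPKM in WT GO2 (log2 fold change -2.80 ± 0.19 SE, adjusted p = 5.12e-07), and Patl2, which is needed for oocyte maturation, had 24.9 and 26.9 RPKM in WT FGO, against 118 and 141 RPKM in WT GO2 (log2 fold change -2.27). The repressor helicase gene Ddx6 had 3.13 and 2.39 RPKM in WT FGO, against 11.3 and 13.1 RPKM in WT GO2 (log2 fold change -1.81), and the mRNA storage protein gene Ybx2, also called MSY2, had 99.3 and 92.5 RPKM in WT FGO, against 166 and 179.9 RPKM in WT GO2 (log2 fold change -0.84). Falls were also seen for genes that promote decay, the m6A reader gene Ythdf2 (log2 fold change -1.55) and the CCR4-NOT adaptor gene Tob1 (log2 fold change -1.96).

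Small RNA genes rose in 6 of 19 cases (31.6%) and fell in 6 (31.6%), against 26.3% and 22.1% of all tested genes. Kept were 5 rises and 3 falls. Ago2, the slicing Argonaute of RNA interference, had 92.6 and 107 RPKM in WT FGO, against 41.5 and 36.5 RPKM in WT GO2 (log2 fold change 1.33 ± 0.14 SE, adjusted p = 1.15e-05), and Dicer1 had 198 and 175 RPKM in WT FGO, against 145 and 121 RPKM in WT GO2 (log2 fold change 0.49). Ddx4, the germ cell helicase also called VASA, had 14.7 and 18.2 RPKM in WT FGO, against 95.2 and 122 RPKM in WT GO2 (log2 fold change -2.65 ± 0.18 SE, adjusted p = 5.12e-07), and Piwil2 had 0.262 and 0.380 RPKM in WT FGO, against 3.98 and 4.80 RPKM in WT GO2 (log2 fold change -2.03). Piwil1 had 3.73 and 2.64 RPKM in WT FGO, against 0.434 and 0.670 RPKM in WT GO2 (log2 fold change 1.42).

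Of 21 tested genes of sperm binding and egg activation, 3 rose (14.3%) and 7 fell (33.3%), against 26.3% and 22.1% of all tested genes. Kept were 3 rises and 6 falls. Izumo1r, the sperm receptor JUNO, had 534 and 645 RPKM in WT FGO, against 284 and 311 RPKM in WT GO2 (log2 fold change 0.98 ± 0.13 SE, adjusted p = 0.000104), whereas Cd9, the tetraspanin needed for gamete fusion, had 125 and 207 RPKM in WT FGO, against 644 and 613 RPKM in WT GO2 (log2 fold change -1.96 ± 0.22 SE, adjusted p = 2.13e-05). The genes of these egg surface proteins thus changed in opposite directions. Store-operated calcium entry genes fell, Orai1 with 51.2 and 42.3 RPKM in WT FGO, against 89.3 and 82.1 RPKM in WT GO2 (log2 fold change -0.87) and Stim1 with 0.680 and 1.73 RPKM in WT FGO, against 5.18 and 4.21 RPKM in WT GO2 (log2 fold change -1.41). The calcium pump gene Atp2b1 had 61.4 and 67.1 RPKM in WT FGO, against 37 and 28.9 RPKM in WT GO2 (log2 fold change 0.95).

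In oocyte growth signalling, 5 of 28 tested genes rose (17.9%) and 8 fell (28.6%), against 26.3% and 22.1% of all tested genes. Kept were 3 rises and 5 falls. Egfr, the epidermal growth factor receptor, known in the follicle mainly from granulosa and cumulus cells, had 60.1 and 75.5 RPKM in WT FGO, against 5.78 and 3.58 RPKM in WT GO2 (log2 fold change 3.62 ± 0.34 SE, adjusted p = 6e-06). Kit, the receptor through which granulosa cells promote growth, had 32.3 and 38 RPKM in WT FGO, against 54.6 and 56.8 RPKM in WT GO2 (log2 fold change -0.65), a call kept only without WT GO2 replicate 1 or without WT FGO replicate 2. Tsc2, an inhibitor of mTOR signalling, had 12.3 and 12 RPKM in WT FGO, against 26.3 and 26.8 RPKM in WT GO2 (log2 fold change -1.07). Eif4ebp1, the translation repressor that mTOR inactivates, had 2.75 and 3.15 RPKM in WT FGO, against 25.3 and 19.2 RPKM in WT GO2 (log2 fold change -2.55 ± 0.25 SE, adjusted p = 8.84e-06).

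Proteasome genes rose in 21 of 42 cases (50%) and fell in 6 (14.3%), with a median log2 fold change of 0.27, and 12 rises and 4 falls were kept. The rises were modest, as for Psmf1 with 382 and 409 RPKM in WT FGO, against 224 and 201 RPKM in WT GO2 (log2 fold change 0.89) and Psma7 with 1626 and 1391 RPKM in WT FGO, against 1044 and 1015 RPKM in WT GO2 (log2 fold change 0.55). The falls were fewer and larger: the lid subunit gene Psmd13 had 4.07 and 5.96 RPKM in WT FGO, against 36 and 35.2 RPKM in WT GO2 (log2 fold change -2.62 ± 0.20 SE, adjusted p = 1.58e-06), and the assembly chaperone gene Psmg2 had 1.63 and 1.29 RPKM in WT FGO, against 18.6 and 17.4 RPKM in WT GO2 (log2 fold change -2.95 ± 0.19 SE, adjusted p = 4.33e-07). Cytosolic ribosomal protein genes fell in 27 of 82 cases (32.9%) and rose in 5 (6.1%), with a median of -0.14, and 3 rises and 20 falls were kept. In KO the same genes rose in 24 cases and fell in 8 between KO FGO and KO GO2 (22.3% and 19.4% of all tested genes), with a median of 0.15, and the step differed between KO and WT for 11 of the 82 (3.8% of all). Their summed level was 24300 to 24500 RPKM in WT FGO, against 26500 to 27400 RPKM in WT GO2, with 27600 to 28600 RPKM in WT nFGO. In KO it was 23100 to 25300 RPKM in KO FGO, against 21100 to 21800 RPKM in KO GO2. Rps23 had 36.3 and 38 RPKM in WT FGO, against 209 and 232 RPKM in WT GO2 (log2 fold change -2.54), and Rpl9 had 11.5 and 11.3 RPKM in WT FGO, against 69.7 and 62.9 RPKM in WT GO2 (log2 fold change -2.44), while Rpl37 had 1537 and 1510 RPKM in WT FGO, against 1094 and 1087 RPKM in WT GO2 (log2 fold change 0.48). Ribosomal protein genes have many processed pseudogenes that can share their reads. Heat shock genes fell in 9 of 17 cases (52.9%) and rose in 2 (11.8%), against 22.1% and 26.3% of all tested genes. Kept were 1 rise and 6 falls. Among the falls were Hsph1 with 39.4 and 35 RPKM in WT FGO, against 142 and 142 RPKM in WT GO2 (log2 fold change -1.91) and Hsp90aa1 with 2775 and 3074 RPKM in WT FGO, against 4249 and 3984 RPKM in WT GO2 (log2 fold change -0.49).

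Mitochondrial respiration genes encoded in the nucleus fell in 38 of 81 cases (46.9%) and rose in 5 (6.17%), with a median log2 fold change of -0.24, and 3 rises and 25 falls were kept. Their summed level was 30600 to 32000 RPKM in WT FGO, against 38400 to 38700 RPKM in WT GO2. It was 33600 to 35200 RPKM in WT GO1 and 34500 to 34800 RPKM in WT nFGO. In KO the sum was 28000 to 29800 RPKM in KO FGO, against 29700 to 31600 RPKM in KO GO2. There 22 genes fell and 9 rose (19.4% and 22.3% of all tested genes). The step differed between KO and WT for 7 of the 81 (3.8% of all). The ATP synthase gene Atp5g3 had 79.9 and 93.5 RPKM in WT FGO, against 299 and 335 RPKM in WT GO2 (log2 fold change -1.86), the cytochrome c1 gene Cyc1 had 24.6 and 26.1 RPKM in WT FGO, against 57.5 and 58.4 RPKM in WT GO2 (log2 fold change -1.16) and the complex IV gene Cox6c had 704 and 833 RPKM in WT FGO, against 1325 and 1390 RPKM in WT GO2 (log2 fold change -0.82). Cycs, the gene of cytochrome c, was a rise, with 288 and 284 RPKM in WT FGO, against 141 and 113 RPKM in WT GO2 (log2 fold change 1.17). Of 13 genes for replication and transcription of mitochondrial DNA, 3 rose (23.1%) and 6 fell (46.2%), against 26.3% and 22.1% of all tested genes. Kept were 1 rise and 5 falls. Tfam, which packages mitochondrial DNA, had 14 and 13.6 RPKM in WT FGO, against 62.6 and 62.4 RPKM in WT GO2 (log2 fold change -2.10 ± 0.19 SE, adjusted p = 5.5e-06), and the polymerase gene Polrmt had 77.6 and 73.3 RPKM in WT FGO, against 147 and 149 RPKM in WT GO2 (log2 fold change -0.96), while Nrf1, a regulator of nuclear respiratory genes, had 139.8 and 132 RPKM in WT FGO, against 88.3 and 85.8 RPKM in WT GO2 (log2 fold change 0.64). The genes of the mitochondrial genome itself were not analysed here.

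Glycolysis and pyruvate genes rose in 4 of 23 cases (17.4%) and fell in 5 (21.7%), against 26.3% and 22.1% of all tested genes. Kept were 2 rises and 1 fall. Cholesterol synthesis genes rose in 4 of 22 cases (18.2%) and fell in 4 (18.2%), and 2 rises and 3 falls were kept. The glucose transporter gene Slc2a1 had 6.82 and 7.13 RPKM in WT FGO, against 17 and 18.5 RPKM in WT GO2 (log2 fold change -1.23), and Pdhx, of the pyruvate dehydrogenase complex that oocytes rely on, had 211 and 205 RPKM in WT FGO, against 149 and 143 RPKM in WT GO2 (log2 fold change 0.51). Within the cholesterol pathway, Pmvk had 1.38 and 2.11 RPKM in WT FGO, against 12.2 and 13.7 RPKM in WT GO2 (log2 fold change -2.35), whereas Sc5d, of a late step, had 137 and 127 RPKM in WT FGO, against 80.3 and 70.3 RPKM in WT GO2 (log2 fold change 0.80).

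Many markers of other follicle cells were not in the table, so their level is unknown, and the others moved in both directions. Cyp19a1 and C1qb lay above the median of all tested genes in WT FGO, 9.28 RPKM. Of 19 granulosa and cumulus markers, 7 were in the table and 5 were tested, and their summed level was 36.3 to 45.5 RPKM in WT FGO, against 17.1 to 22.3 RPKM in WT GO2. Most of the higher sum came from Cyp19a1, the aromatase gene, with 23.1 and 31.6 RPKM in WT FGO, against 5.42 and 2.60 RPKM in WT GO2 (log2 fold change 2.54), whereas the follicle-stimulating hormone receptor gene Fshr had 0.185 and 0.316 RPKM in WT FGO, against 1.89 and 1.58 RPKM in WT GO2 (log2 fold change -1.13). Of 12 hormone-response and luteal markers only Star was in the table, at 0.311 and 0.333 RPKM in WT FGO, against 0.192 and 0.242 RPKM in WT GO2. Theca and stroma markers summed to 2.5 to 3.8 RPKM in WT FGO, against 3.16 to 13.6 RPKM in WT GO2, where Dcn stood at 11.51 RPKM in replicate 1. Blood and immune markers (3 of 14 in the table) summed to 45.1 to 54.1 RPKM in WT FGO, against 25.9 to 31.6 RPKM in WT GO2, most of it from the complement gene C1qb with 49.6 and 40.0 RPKM in WT FGO, against 27.1 and 21.4 RPKM in WT GO2 (log2 fold change 0.86). Their part in the changes of Egfr, Selp and Lcp2 was not tested. The oocyte markers Zp1, Zp2, Zp3, Gdf9 and Bmp15 were at 451 RPKM or more in all 4 libraries, though the zona genes were lower in WT FGO. Of the other oocyte markers, Ddx4 (log2 fold change -2.65), Figla (-1.28) and Kit (-0.65) lay under that level in all 4 libraries and were lower in WT FGO. The marker list also held Nobox, which did not pass the test, and Dazl, whose change is not given here.

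The late step was compared with the early one, WT GO2 against WT GO1, by the difference between the steps; both use the WT GO2 libraries. The steps differed for 25.6% of genes, 2081 with a larger late than early change in the upward direction and 1644 in the downward direction. This count of 3725 was 1854 without WT GO2 replicate 1 and 1441 without WT GO2 replicate 2. The difference contains the late change by which the largest rises and falls were chosen, so their values in it are a description. Lmo3 had 0.348 and 0.559 RPKM in WT GO2 and 0.424 and 0.246 RPKM in WT GO1 (late minus early log2 difference 5.46, adjusted p = 8.98e-06). Mei4 stood at 4.99 and 3.87 RPKM in WT GO2 and 5.01 and 4.16 RPKM in WT GO1 (late minus early log2 difference 3.96). Malat1 had 1015 and 1074 RPKM in WT GO2 and 1063 and 844 RPKM in WT GO1, and Id3 145 and 182 RPKM in WT GO2 and 167 and 166 RPKM in WT GO1. The late minus early log2 differences were -5.32 for Malat1 and -4.94 for Id3. Mdn1 had 18.2 and 19 RPKM in WT GO2, against 8.83 and 11.8 RPKM in WT GO1, before its late fall (late minus early log2 difference -4.97).

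Whether the changes appeared without hormone was read from nFGO. Between WT FGO and WT nFGO 2.69% of genes passed the test, 118 higher (0.811%) and 274 lower (1.88%) in WT FGO, and 53 passed when the fit held these 4 libraries only. With 1 of the 4 left out the count was 127 to 270, the lowest without WT nFGO replicate 2. Of the 15 largest late rises, 14 were above WT GO2 by more than 1 on the log2 scale in WT nFGO, all but Arid5b. All 15 of the largest late falls were below WT GO2 by more than 1 on that scale in WT nFGO. These genes were chosen against the same WT GO2 libraries, so both counts are a description without a test. The share of all tested genes past these limits was not counted. Selp had 108 and 119 RPKM in WT FGO, against 105 and 112 RPKM in WT nFGO, and Uqcrc1 had 4.34 and 6.24 RPKM in WT FGO, against 6.49 and 6.91 RPKM in WT nFGO. The largest differences between FGO and nFGO included that of Mia3. This gene of a cargo receptor of collagen secretion had 46.1 and 66.7 RPKM in WT FGO, against 1.83 and 2.19 RPKM in WT nFGO and 56.7 and 59.5 RPKM in WT GO2. Zdhhc2, a palmitoyltransferase gene, had 0.388 and 0.954 RPKM in WT FGO, against 69.2 and 75 RPKM in WT nFGO, and the pheromone receptor gene Vmn1r139 had 0.0904 and 0 RPKM in WT FGO, against 83.8 and 100.2 RPKM in WT nFGO. The log2 differences of FGO over nFGO were 4.23, -5.47 and -6.47 for these 3 genes.

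In knockout oocytes the same step, KO FGO against KO GO2, used 4 other libraries. There 41.7% of genes passed the test, 3249 that rose and 2826 that fell. A shared direction was found for 4422 genes, which were 62.7% of the WT calls and 72.8% of the KO calls, and 66 genes passed in opposite directions. Of the 15 largest WT rises 14 also rose in KO, and all 15 of the largest WT falls fell in KO. The test of the difference between the genotypes was passed by 3.8% of genes, 275 with a higher and 278 with a lower late change in KO. The count of 553 was 125 to 356 with 1 of the 8 libraries left out, the lowest without KO GO2 replicate 2 and the highest without WT FGO replicate 1. The genes were chosen on their WT change and the difference uses the WT libraries again, so the smaller KO change of 14 of the 15 rises and 12 of the 15 falls is a description without a test.

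Genes whose late rise was smaller in KO included Lmo3, with 16.9 and 11.8 RPKM in KO FGO, against 0.465 and 0.696 RPKM in KO GO2 (KO minus WT log2 difference -2.32, adjusted p = 0.00218). Robo2 had 1.89 and 2.40 RPKM in KO FGO, against 0.962 and 0.571 RPKM in KO GO2 (difference -3.58, adjusted p = 0.00111). Mei4 had 20.8 and 9.16 RPKM in KO FGO, against 4.89 and 6.48 RPKM in KO GO2 (difference -2.75, adjusted p = 0.00415), and Fbxo15 had 18.9 and 12.9 RPKM in KO FGO, against 3.42 and 5.11 RPKM in KO GO2 (difference -2.52). In all 4 genes KO FGO lay well under WT FGO. Slc25a13, a mitochondrial aspartate-glutamate carrier gene, had 27.7 and 27.8 RPKM in WT FGO, against 3.53 and 2.25 RPKM in WT GO2, and 5.19 and 9.32 RPKM in KO FGO, against 5.79 and 7.46 RPKM in KO GO2 (difference -2.83, adjusted p = 0.00518). In KO nFGO it was higher than in KO GO2, at 13.2 and 20.2 RPKM. Reg3g, an antimicrobial lectin gene, had 9.28 and 11.6 RPKM in WT FGO, against 0.173 and 0.0910 RPKM in WT GO2, and 1.74 and 2.11 RPKM in KO FGO, against 0.663 and 1.37 RPKM in KO GO2 (difference -2.77). Kif23 had 320.2 and 332 RPKM in KO FGO, against 311 and 326 RPKM in KO GO2 (difference -0.93, adjusted p = 0.00415). In the other direction, Eif4ebp1 had 13.8 and 17.7 RPKM in KO FGO, against 14.2 and 13.6 RPKM in KO GO2 (difference 2.71, adjusted p = 0.00338). Its WT fall was thus not seen in KO FGO, but KO nFGO was lower than KO GO2, at 6.39 and 4.01 RPKM. Arl8a, a lysosome positioning gene, had 2.73 and 8.77 RPKM in WT FGO, against 17 and 15.2 RPKM in WT GO2, and 9.89 and 8.31 RPKM in KO FGO, against 3.06 and 2.48 RPKM in KO GO2 (difference 2.92). Each of these 9 differences kept its call with every 1 of the 8 libraries left out. For Robo2, Slc25a13, Reg3g, Mei4, Eif4ebp1 and Arl8a this was part of the rule that ranked them among the named genes. Arid5b had 38.2 and 63.9 RPKM in KO FGO, against 0.0623 and 0.0264 RPKM in KO GO2 (difference 0.34, adjusted p = 0.93), with no difference between the genotypes that passed.

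**Figure D4:**
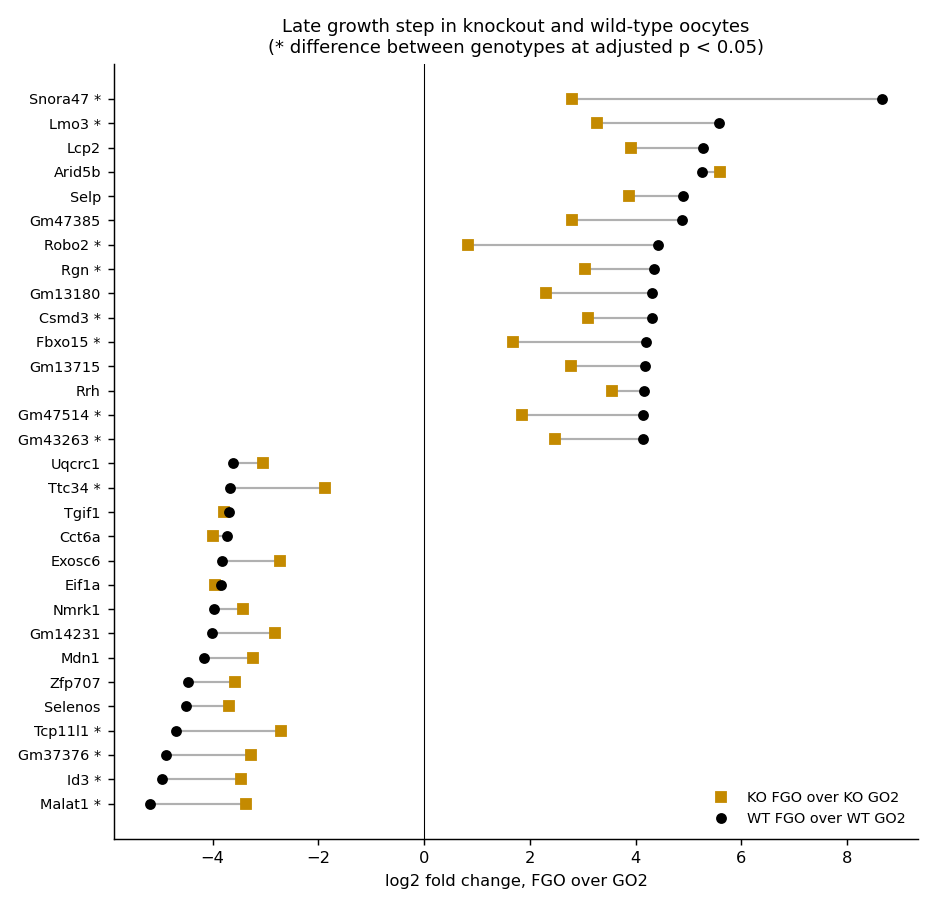
Log2 fold change of FGO over GO2 for the 15 largest rises and 15 largest falls of wild type, in KO (squares) and in WT (circles), joined by a line per gene. Stars mark genes whose step differed between genotypes at adjusted p under 0.05, 8 of the rises and 5 of the falls, against 3.8% of all tested genes. The genes were chosen on their WT change, which the difference uses again, so these counts are a description. Robo2 was at 0.84 in KO and 4.41 in WT. The WT values of Snora47 and Exosc6, listed at 0 in 1 WT group, depend on the pseudocount.

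Rising and falling genes were also described by kind and span. Of the genes that rose at least 2-fold, 77.5% of those with a known biotype were protein coding and 15.7% long noncoding. The genes that fell at least 2-fold were 91.5% protein coding and 4.44% long noncoding, and all tested genes 85.6% and 7.2%. Biotypes were known for 84.9% of the rising, 93.4% of the falling and 91.3% of all genes. Protein-coding genes that rose at least 2-fold spanned a median of 45.1 kb, against 16.9 kb for those that fell and 26.1 kb for all tested. The median level of the rising genes was 13.5 RPKM in WT FGO, against 3.24 RPKM in WT GO2, and that of the falling genes 2.42 RPKM in WT FGO, against 10.0 RPKM in WT GO2. Genes are not independent replicates and no test was made of these shares. Long and short genes stood on both sides, as Csmd3 and Rgn among the largest rises and Mdn1 and Id3 among the largest falls. Along the chromosomes the share of rising genes lay between 21.6% on chromosome 11 and 30.9% on chromosome 13, and that of falling genes between 17% on chromosome 13 and 29.4% on chromosome 19.

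**Figure D5:**
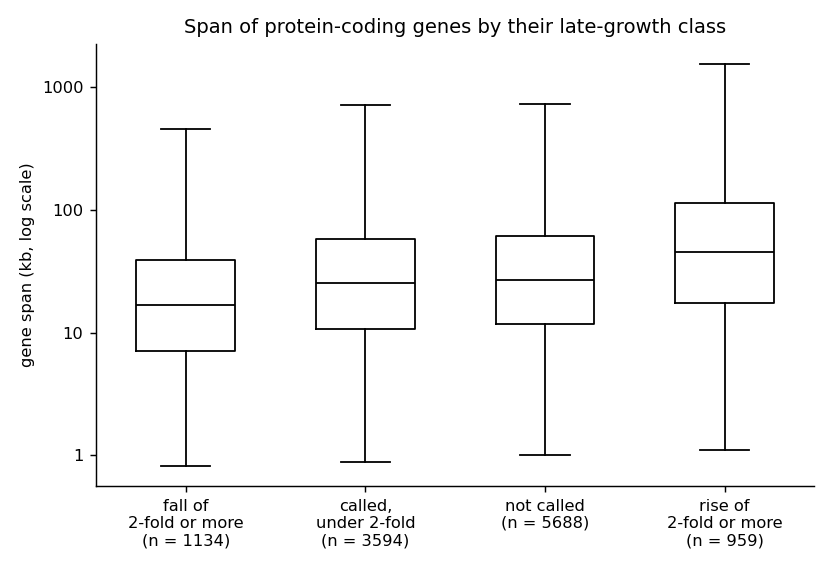
Span of protein-coding genes in kb (log scale) by their change between WT FGO and WT GO2; boxes show the quartiles and median, whiskers reach 1.5 box lengths, and n is the number of genes. The median was 45.1 kb for rises and 16.9 kb for falls of at least 2-fold.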

How the data were processed

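Gene expression was measured by RNA-seq of oocytes at 4 stages in 2 genotypes, 2 libraries per group. Per the labels, cDNA was made from 20 oocytes per library with the SMARTer Ultra Low Input kit, and Nextera XT libraries were read single-end for 100 bp on a HiSeq2500. The submitters' processing notes give the build as mm10 and list, without their roles, the tools HISAT2 2.1.0, Trim Galore 0.4.5, deepTools 3.0.2, DESeq 1.34.1, Cuffnorm and Cufflinks 2.2.1. Per the file headers the deposited values are RPKM, 1 per gene and library. Of 16975 gene IDs, 35 that were written 32 times each were left out, which kept 16940, 174 of them at 0 throughout; 18 names stored as dates were restored by ID. Only 33.3 to 42.9% of ratios of low values lay within 1% of small whole-number ratios, so the depth is unknown and no counts were recovered.

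With limma 3.58.1 in R 4.3.3, log2(RPKM + 1) was fitted with 1 mean per group over all 16 libraries (trended prior, 8 residual and 4.01 prior degrees of freedom, no block) for genes at 1 RPKM or more in at least 2 libraries. P-values were adjusted by Benjamini-Hochberg over all tested genes, and calls were made under 0.05. The fit was tested on simulated data. Named genes were the 15 largest rises and 15 largest falls among calls with a mean of at least 5 RPKM in the higher group. Their call also had to hold with each of the 4 libraries left out. The 10 highest genes in WT FGO, members of gene lists and Smarca5 were named too. So were the 5 largest changes in each direction of the other comparisons, by the same rule with each of their own libraries left out. The comparison, its members and the gene lists were chosen with earlier results of these data known. Replicate numbers are not said to pair libraries, and deviations of same-numbered libraries correlated at -0.04 to 0.10 across genes in the groups compared. Promoter sequences and biotypes came from RefSeq. Alternatives were pseudocounts, filters, scalings, the variance trend, a fit of the compared groups, a replicate block and each library left out. The 8 ATAC-seq samples were not analysed here.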

Additional observations from a re-analysis of the deposited data

Results flagged for a closer look

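The size of the late-growth step differed between genotypes by the interaction test (limma, Benjamini-Hochberg adjusted p under 0.05) for 39 of the 199 genes that the text gives with a fold change or that rank among the named genes. Many were chosen for their WT change or for this difference itself, so their share is a description. Values are KO minus WT log2 differences of FGO over GO2. Among genes that rose in WT the step was lower in KO for Snora47 (-5.86, which depends on the pseudocount since WT GO2 is at 0), Gm47514 (-2.28), Gm43263 (-1.67), Robo2 (-3.58), Slc25a13 (-2.83), Reg3g (-2.77), Mei4 (-2.75), Fbxo15 (-2.52), Lmo3 (-2.32), Rgn (-1.32), Csmd3 (-1.21), Ccnb3 (-1.20), Dnmt3l (-0.96) and Kif23 (-0.93), and higher in KO for Omt2b (0.39). Among genes that fell in WT it was higher in KO, a smaller or absent fall, for Eif4ebp1 (2.71), Tcp11l1 (1.97), Malat1 (1.82), its antisense neighbour Gm37376 (1.61), Ttc34 (1.81), Sycp3 (1.60), Id3 (1.50), Pabpc1 (1.24), H2afz (1.15), Atp5g3 (1.12), Cyc1 (1.05), Slc2a1 (0.87), Rpl9 (0.86) and Ube2c (0.70). Arl8a fell in WT and rose in KO (2.92). The fall was larger in KO for Baz1a (-0.74) and Tle6 (-0.56). Fgf21, a metabolic hormone gene, rose in KO and did not pass in WT (5.70). So did the immunoglobulin genes Ighg2b (9.64) and Ighg3 (5.31), whose WT FGO libraries were far apart. Gm2309 (4.55), Klhdc8b (3.82) and the histone H4 gene Hist1h4d (2.59) fell in WT and rose in KO. The WT calls of Klhdc8b and Hist1h4d were lost with some of the 4 WT GO2 and WT FGO libraries left out. Gm7908 fell in KO and did not pass in WT (-2.27). The call was kept with each of the 8 libraries left out for 20 genes, namely Snora47, Gm47514, Gm43263, Gm2309, Klhdc8b, Hist1h4d, Gm7908, Robo2, Slc25a13, Reg3g, Mei4, Fbxo15, Lmo3, Kif23, Eif4ebp1, Tcp11l1, Ttc34, H2afz, Atp5g3 and Arl8a, and was lost without 1 or more of them for the rest. For Snora47, Gm2309, Klhdc8b, Hist1h4d, Robo2, Slc25a13, Reg3g, Mei4, Eif4ebp1 and Arl8a this was part of the rule that named them.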

How the results depend on the processing

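The count of genes that passed between WT FGO and WT GO2, 7048 as reported, was 5630 to 7302 with another pseudocount, filter, scaling or fit, and 5277 to 5880 with 1 library left out. Quantile normalization gave 3474 rises and 3525 falls, against 3831 and 3217 as reported. The same step in KO gave 6075 calls, 4203 to 4594 with 1 library left out. The difference between the genotypes, 553 calls, gave 125 to 356 with 1 of the 8 libraries left out, and late minus early growth, 3725 calls, gave 1441 to 3273. WT FGO against WT nFGO, 392 calls, gave 53 in a fit over the compared groups only and 127 to 270 with 1 library left out; the cause was not tested, though fewer libraries enter these fits. With a replicate block, which the labels do not call for, the counts were 7106, 6099, 539, 3782 and 413 in the order above. The block changed no call of WT FGO against WT GO2 among the 167 genes followed through the alternatives for that comparison. The KO minus WT difference of Ighg3 lost its call with the block. For WT FGO against WT GO2 the direction of Smarca5 reversed to 0.36 without WT FGO replicate 2 and was -1.37, past the threshold, without replicate 1. The KO minus WT difference of Arid5b reversed to -0.24 without WT FGO replicate 1 and to -0.02 without KO FGO replicate 2, and was 0.93 without WT FGO replicate 2, and that of Lmo3 was -2.58 with a pseudocount of 0.1, where it no longer passed. That of Fgf21 did not pass with any of the 8 libraries left out. Oog4 lost its call without a filter and without the variance trend, H1foo with quantile normalization, and Oog4, Zp2, Ldhb and Ooep in a fit over the compared groups only. Those of the 15 largest rises and 15 largest falls that the text gives with a fold change kept direction and call in each alternative run. For the runs with 1 of the 4 libraries left out, this was required by the rule that chose these genes. Read depth is not known, so what limits the genes near 1 RPKM cannot be given.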

Other observations

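A few genes differed strongly between the 2 WT FGO libraries and so could not be placed in late growth. Gm14295 had 0.201 and 71.8 RPKM in WT FGO, against 0.237 and 5.89 RPKM in WT GO2, and 270 and 259 RPKM in WT GO1. The immunoglobulin constant region gene Ighg2b had 0.710 and 126 RPKM in WT FGO, against 82.5 and 54.2 RPKM in WT GO2. Its neighbour Ighg3 had 0.0566 and 21.9 RPKM in WT FGO, against 6.49 and 4.30 RPKM in WT GO2. In KO, Ighg2b had 171 and 183 RPKM in KO FGO, against 0.0517 and 0 RPKM in KO GO2. Fgf21 had 45.5 and 70.7 RPKM in KO FGO, against 0.0629 and 0.390 RPKM in KO GO2, and stood at 0.133 and 0 RPKM in WT FGO, against 0.263 and 0.0691 RPKM in WT GO2. The ribosomal protein gene Rpl7a had 14.7 and 18 RPKM in WT FGO, against 16 and 17.2 RPKM in WT GO2, and 74.6 and 75.2 RPKM in WT nFGO.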
